A study of Danio rerio with 12 samples.

Results

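The genes described here encode the receptors and ligands of the Notch pathway and the bHLH repressors of the her, hey and hes families, whose RNA was sequenced in pooled zebrafish embryos. The members are picked by their names in the count table: every entry named as a numbered notch, jag, her or hes gene, as hey, dla, dlb or dll4, with her1 and her7 left out. This gave 38 of 31051 entries, of which 33 passed the filter on low counts and could be tested. The name of 1 of the 38 was misleading: NOTCH2NL is listed as eys in the gene name table used here, and it lay below the filter.

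All embryos were of the AB strain, received a morpholino when they had 1 cell and were collected at 10 somites. A morpholino is an antisense oligomer that keeps an RNA from being translated or spliced. A control morpholino went into prdm1+/+ embryos, called controls here, and into prdm1-/- embryos, called prdm1 mutants. The pbx2/4 morpholinos went into prdm1+/+ embryos, called pbx2/4 morphants, and into prdm1-/- embryos, called double embryos. The prdm1 allele is not named in the labels. Each of the 4 groups has 3 libraries, each a pool of RNA isolated from single embryos and pooled after genotyping, and the series' design text gives 3 independent rounds of egg collection and injection. No sample without any morpholino was analysed here.

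Notch receptors sit in the membrane of a cell and are cut when a Delta or Jagged ligand on a neighbouring cell binds them. The freed intracellular part enters the nucleus and, with the DNA-binding protein Rbpj, switches on genes that include many of the her and hey repressors. In the neural plate this keeps some cells as progenitors while neighbours that make more Delta become neurons. Other her genes act in the segmentation clock of the tailbud, at the midbrain-hindbrain boundary or between proneural domains, some of them without Notch input.

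Levels are CPM, the usual scaling of counts to library size, with the sizes adjusted by the TMM method. CPM values are not divided by gene length, so levels are compared between libraries and not between genes. A gene is called when its adjusted p is under 0.05 in the quasi-likelihood test of edgeR over all 18117 genes tested. The 12 count columns fall by the form of their names into 3 sets, A, B and C, each with 1 library of every group, and values in a row of 3 are given in the order A, B, C. Because libraries of the same set deviated together, each test is given without and with the set as a block. The log2 fold change and SE printed with these tests are from the fit without the block. The libraries held 9703947 to 12510949 counts (set A), 9059663 to 10288335 (set B) and 15164400 to 17236848 (set C), so 1 count was worth 0.0572 to 0.115 CPM. prdm1a had 104.8 ± 9.4 CPM in controls, and 139 ± 6.09 CPM was the level of the prdm1 mutants, 122 ± 10.7 that of the morphants and 227 ± 10.6 that of the double embryos (SD, n = 3). pbx2 had 57.0 ± 12.7, 58.3 ± 12.8, 260.1 ± 35.5 and 276 ± 41.9 CPM in these groups. pbx4 had 329.8 ± 39.7, 323.9 ± 43.9, 437.8 ± 43.2 and 441.4 ± 75.1 CPM, a smaller rise in proportion. None of these RNAs measures the loss of its protein.

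Among the ligand genes dla fell with the pbx2/4 morpholinos, and JAG2 (2 of 2) was higher, called in edgeR only with the block. dla (ENSDARG00000010791), a Delta gene of nascent neurons, had 90.9, 83.7 and 88.2 CPM in the controls of sets A, B and C and 94.2, 87.3 and 85.1 in prdm1 mutants. It had 69.8, 54.0 and 66.7 CPM in pbx2/4 morphants and 59.5, 59.9 and 59.3 in double embryos. All 6 libraries with pbx2/4 morpholinos, at 54.0 to 69.8 CPM, lay below the 6 without, at 83.7 to 94.2 CPM. dla fell in double embryos against controls (log2 fold change -0.56, SE 0.11, adjusted p = 0.023, 0.000157 with the block) and against prdm1 mutants (log2 fold change -0.58, SE 0.11, adjusted p = 0.0255, 0.000153 with the block). In edgeR, morphants against controls passed for it only with the block (log2 fold change -0.46, SE 0.11, adjusted p = 0.0692, 0.000703 with the block), with -0.63 to -0.38 within the 3 sets. DESeq2, the other method run, called dla there too.

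Over the 22 settings the dla log2 fold change was -0.59 to -0.53 in double embryos against controls and -0.61 to -0.53 against prdm1 mutants. The dla call without the block was lost when some single libraries were left out. Against controls it was lost when the set A or set C control, or the double library of any set, was left out, with adjusted p up to 0.0983. Against prdm1 mutants it was lost without any 1 mutant or double library, with adjusted p up to 0.12. The other Delta genes of the selection were not called without or with the block. dlb (ENSDARG00000004232), also a Delta gene of early neurons, had 61.6, 62.9 and 59.7 CPM in controls and 63.2, 55.3 and 67.1 in morphants, with 0.01 (SE 0.11, adjusted p = 0.988, 0.937 with the block) on the log2 scale. dll4 (ENSDARG00000070425), a Delta gene of vessel sprouts, had 4.32, 2.41 and 4.28 CPM in controls and 3.86, 4.13 and 4.16 in morphants, with 0.13 (SE 0.25, adjusted p = 0.924, 0.771 with the block).

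Of the Jagged genes, 2 had higher and 2 lower levels with the pbx2/4 morpholinos, and none of the 4 passed in edgeR without the block. JAG2 (2 of 2) (ENSDARG00000014246), listed as jag2a in the gene name table, had 6.17, 4.48 and 2.58 CPM in controls and 4.18, 3.56 and 2.92 in prdm1 mutants. It had 14.5, 7.40 and 7.07 CPM in morphants and 12.5, 10.2 and 5.61 in double embryos. Within each set both libraries with the morpholinos lay above both without, while the ranges of the 6 and 6 libraries overlapped across sets. The difference was the largest of the 33 tested genes in morphants against controls (log2 fold change 1.15, SE 0.39, adjusted p = 0.224, 0.00081 with the block) and in double embryos against prdm1 mutants (log2 fold change 1.401, SE 0.39, adjusted p = 0.127, 0.000317 with the block). Against controls double embryos had 1.11 (SE 0.39, adjusted p = 0.208, 0.000996 with the block).

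jag1b (ENSDARG00000013168) had 17.5, 17.3 and 22.2 CPM in controls, 16.3, 20.3 and 18.1 in prdm1 mutants, 32.0, 22.2 and 22.4 in morphants and 30.8, 29.8 and 22.9 in double embryos. Its 6 libraries with the morpholinos, at 22.2 to 32.0 CPM, lay above the 6 without, at 16.3 to 22.2 CPM, but the nearest libraries of both sides round to the same value, and the morphant of set C exceeded the control of set C by only 0.02 on the log2 scale. Its counts are not whole numbers in 6 libraries, so its values are less certain than those of entries with whole counts. It passed with the block in double embryos against prdm1 mutants (log2 fold change 0.61, SE 0.18, adjusted p = 0.16, 0.0193 with the block) and against controls (log2 fold change 0.54, SE 0.18, adjusted p = 0.186, 0.0364 with the block), not in morphants against controls (log2 fold change 0.42, SE 0.18, adjusted p = 0.374, 0.105 with the block). jag1a (ENSDARG00000030289), its paralog, had 52.7, 46.4 and 47.3 CPM in controls, 58.4, 50.5 and 42.3 in mutants, 47.7, 39.0 and 33.1 in morphants and 44.9, 40.7 and 36.3 in double embryos. Its log2 fold change was -0.29 (SE 0.16, adjusted p = 0.531, 0.0159 with the block) in morphants against controls, -0.31 (SE 0.16, adjusted p = 0.509, 0.0175 with the block) in double embryos against mutants and -0.26 (SE 0.16, adjusted p = 0.54, 0.0253 with the block) against controls. In all 3 comparisons the fold changes of jag1b and JAG2 (2 of 2) were positive and those of jag1a and jag2 negative.

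jag2 (ENSDARG00000021389), listed as jag2b in the gene name table, had 180.5, 174 and 159 CPM in controls and 180.1, 153 and 141 in prdm1 mutants. It had 159, 142 and 143 CPM in morphants and 167, 139 and 141 in double embryos, and the groups overlapped. Its log2 fold change was -0.21 (SE 0.12, adjusted p = 0.562, 0.0221 with the block) in morphants and -0.20 (SE 0.12, adjusted p = 0.545, 0.0237 with the block) in double embryos against controls. In double embryos against prdm1 mutants it was -0.08 (SE 0.12, adjusted p = 0.911, 0.377 with the block). Embryos are bulk samples, so for every gene here fewer cells of a type and less RNA per cell cannot be told apart.

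**Figure D1:**
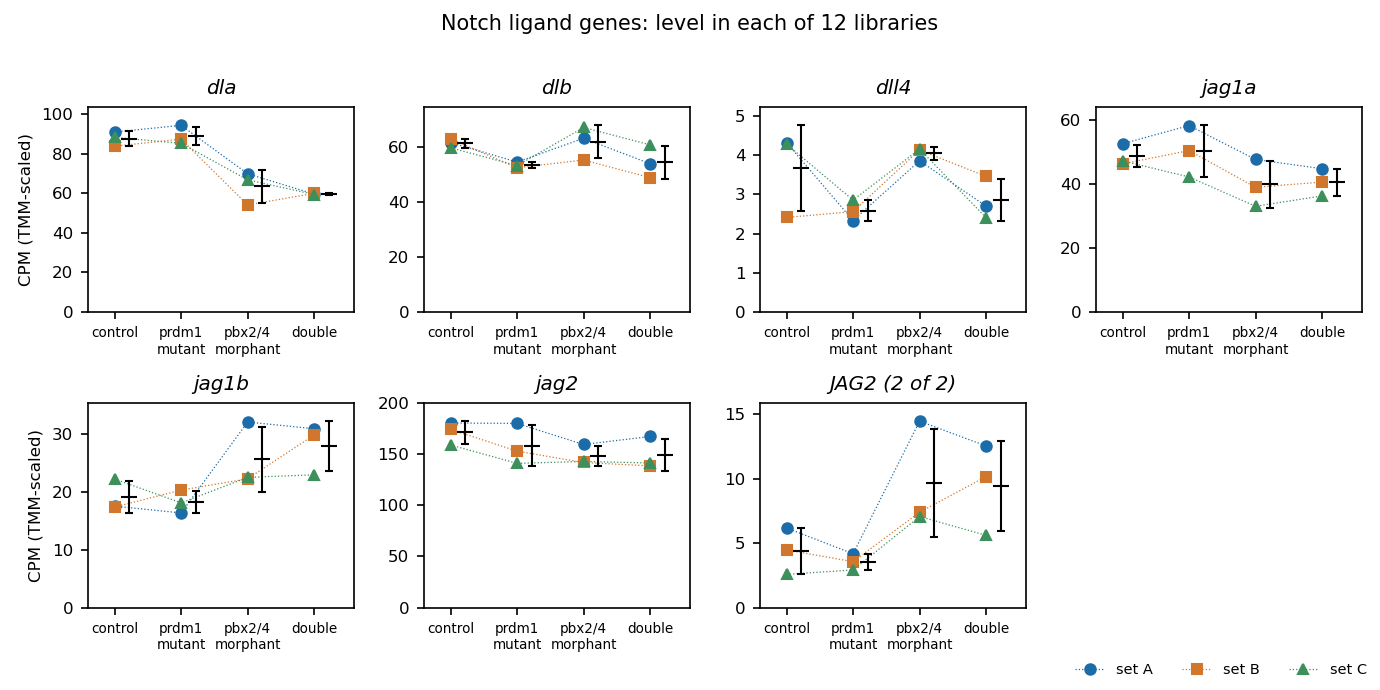
Level of 7 ligand genes in each library, in CPM on TMM-scaled library sizes, with 3 symbols for the column-name sets, dotted lines joining libraries of a set and black bars for the group mean and SD (n = 3). dla lies lower and JAG2 (2 of 2) higher within every set where pbx2/4 morpholinos were injected.

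No receptor entry was called without the block in any comparison, and for 6 of the 7 most of the variation lay between sets. The entries are notch1a (ENSDARG00000094351), notch1b (ENSDARG00000052094), notch2 (ENSDARG00000092960), notch3 (ENSDARG00000052139) and 3 entries named NOTCH1 (2 of 4), (3 of 4) and (4 of 4), 7 in all. The gene name table used here gives no symbol for those 3, nor for notch1a and notch2, so their names were not checked. notch3 had 476 ± 64.0 CPM in controls, 515 ± 111 in prdm1 mutants, 540.0 ± 135 in morphants and 535 ± 125 in double embryos (SD, n = 3). notch1b had 145 ± 51.8, 163 ± 65.5, 142 ± 66.5 and 143 ± 55.5 CPM in the same order. In both genes the libraries of the groups overlapped in every comparison, which says little where most variation lay between sets. Within sets A, B and C notch3 had 0.34, 0.02 and 0.13 on the log2 scale in morphants against controls (adjusted p = 0.0571 with the block). There notch1b had 0.09, -0.21 and -0.11 (0.486 with the block). In double embryos against prdm1 mutants notch3 had 0.08, 0.02 and 0.05 (0.592 with the block) and notch1b -0.20, -0.13 and -0.21 (0.0608 with the block). notch1b was at 205 to 238 CPM in the 4 libraries of set A and at 100.2 to 126 in the 8 of sets B and C. A median of 94.5% of the variance in log2 CPM of the 7 receptor entries lay between sets and 3.41% between groups, against 47% and 22.9% over all genes tested. The exception was notch1a, with 41.3% between sets and 21% between groups. What a set stands for is not stated in the labels.

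Over the 7 receptor entries the log2 fold change ran from -0.04 to 0.18 in morphants against controls and from 0.02 to 0.16 in prdm1 mutants against controls. Their standard errors were large without the block, up to 0.42 for NOTCH1 (3 of 4). notch2 alone passed with the block, in morphants against controls (log2 fold change 0.16, SE 0.27, adjusted p = 0.905, 0.0435 with the block). This is 1 of 7 entries, where 17.7% of all genes tested were called with the block. Its SE in the fit with the block was 0.051. It had 226, 144 and 156 CPM in controls, 238, 147 and 159 in prdm1 mutants, 255, 159 and 175 in morphants and 267, 158 and 161 in double embryos. Within each set the morphant library was higher than the control library, by 0.14 to 0.18 on the log2 scale. Without the morphant library of set A the log2 fold change, in the fit with no block, was -0.070 (adjusted p = 0.961). That fit kept the control of set A, and notch2 had a mean of 247 CPM in set A against 152 and 163 in sets B and C. notch1a, notch2 and NOTCH1 (2 of 4) hold counts that are not whole numbers, so their values are less certain than those of entries with whole counts.

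**Figure D2:**
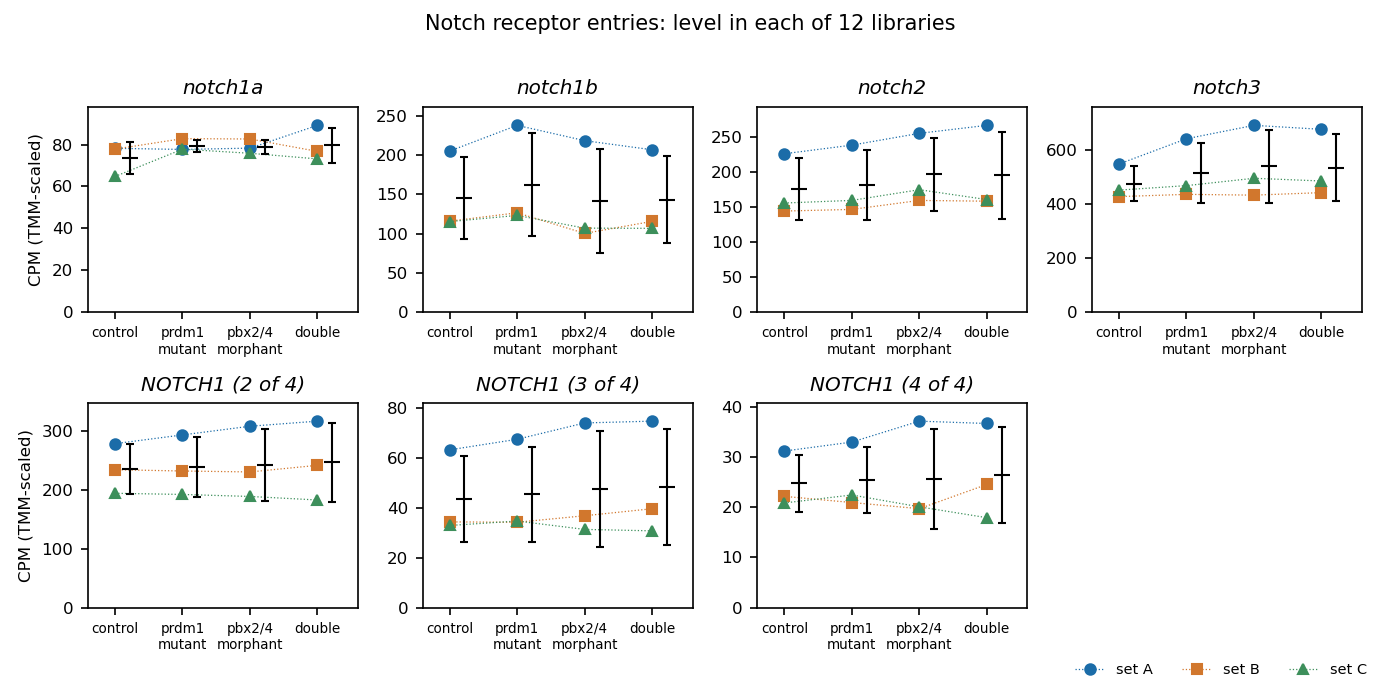
Level of the 7 receptor entries in each library, in CPM on TMM-scaled library sizes, with symbols for the 3 column-name sets and black bars for the group mean and SD (n = 3). In 6 of the 7 panels the set A libraries lie above those of sets B and C in every group; notch1a is the exception.

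The her and hey genes called in morphants against controls were all lower. In edgeR without the block 1 of them was called, her8a in double embryos against controls. With it 10 of the 18 her and hey genes tested were called lower in morphants against controls and 0 higher. Of all genes tested 9.95% were lower there and 7.73% higher. The 18 include 7 her4 and her15 copies, which gave 4 of the 10 calls. Reads may be divided between such copies, so their calls are not independent of each other. her8a (ENSDARG00000016363), a repressor gene of the neural plate, had 129, 94.1 and 138 CPM in controls and 132, 111 and 125 in prdm1 mutants. It had 80.1, 82.3 and 73.0 CPM in morphants and 77.8, 85.6 and 73.5 in double embryos. All 6 libraries with the morpholinos, at 73.0 to 85.6 CPM, lay below the 6 without, at 94.1 to 138 CPM. her8a fell in double embryos against controls (log2 fold change -0.61, SE 0.14, adjusted p = 0.0474, 0.00184 with the block). In morphants it had -0.62 (SE 0.14, adjusted p = 0.0558, 0.00195 with the block) against controls, and in double embryos -0.64 (SE 0.14, adjusted p = 0.0529, 0.00168 with the block) against prdm1 mutants. The fold differed between sets: within sets A, B and C the morphants had -0.69, -0.19 and -0.92 against controls. Of the 12 fits that each leave out 1 library, only the fit without the control of set B called her8a in double embryos against controls (adjusted p = 0.0109), and in the others adjusted p was up to 0.216.

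hey1 (ENSDARG00000070538), a Notch target gene of several tissues, had 70.4, 66.1 and 71.5 CPM in controls, 74.7, 62.2 and 66.3 in prdm1 mutants, 52.5, 43.7 and 46.8 in morphants and 54.2, 45.7 and 56.0 in double embryos. The 6 libraries with the morpholinos, at 43.7 to 56.0 CPM, lay below the 6 without, at 62.2 to 74.7 CPM. In morphants against controls it had -0.54 (SE 0.12, adjusted p = 0.0516, 0.000144 with the block), with -0.61 to -0.42 within the sets. In double embryos it had -0.42 (SE 0.12, adjusted p = 0.115, 0.000838 with the block) against controls and -0.38 (SE 0.12, adjusted p = 0.184, 0.00195 with the block) against prdm1 mutants. hey2 (ENSDARG00000013441), known as gridlock for its part in artery formation, had 11.1, 11.1 and 14.6 CPM in controls, 8.84, 9.91 and 11.7 in prdm1 mutants, 7.31, 7.50 and 9.98 in morphants and 6.97, 7.55 and 7.84 in double embryos. Morphants lay below controls in every set, with log2 fold changes of -0.59 to -0.54, and the double libraries lay below the mutant libraries. Its log2 fold change was -0.57 (SE 0.18, adjusted p = 0.194, 0.00395 with the block) in morphants against controls and -0.73 (SE 0.19, adjusted p = 0.0715, 0.000729 with the block) in double embryos against controls. Against prdm1 mutants the double embryos had -0.45 (SE 0.19, adjusted p = 0.365, 0.0194 with the block). Without the block edgeR on all 12 libraries called neither hey gene in these 3 comparisons, while DESeq2 called hey1 in morphants against controls.

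her2 (ENSDARG00000038205) and the her15 copies, which neighbour each other in the RefSeq table, were all lower. her2 had 23.5, 20.5 and 25.6 CPM in controls, 20.7, 19.8 and 29.5 in prdm1 mutants, 12.9, 11.1 and 18.2 in morphants and 8.88, 12.2 and 18.4 in double embryos, and the 6 libraries with the morpholinos, at 8.88 to 18.4 CPM, lay below the 6 without, at 19.8 to 29.5 CPM. It had -0.72 (SE 0.26, adjusted p = 0.267, 0.00234 with the block) in morphants against controls, -0.81 (SE 0.27, adjusted p = 0.168, 0.000882 with the block) in double embryos against controls and -0.82 (SE 0.27, adjusted p = 0.198, 0.000993 with the block) in double embryos against prdm1 mutants. her15.1 and her15.2, near-identical copies of a Notch-responsive gene of the neural plate, hold counts that are not whole numbers, so the values of single copies are uncertain. her15.1 had 31.5, 26.9 and 33.2 CPM in controls, 28.8, 26.3 and 32.3 in mutants, 19.5, 18.2 and 29.5 in morphants and 18.6, 19.4 and 27.2 in double embryos. her15.2 had 21.0, 24.6 and 23.9 CPM in controls, 23.5, 22.0 and 24.4 in mutants, 13.5, 15.187 and 21.1 in morphants and 13.2, 15.199 and 20.8 in double embryos.

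Summed, the 2 her15 copies had 53.7 ± 3.03 CPM in controls, 52.5 ± 4.13 in prdm1 mutants, 39.0 ± 10.1 in morphants and 38.1 ± 8.70 in double embryos (SD, n = 3). The sum had -0.46 (SE 0.19, adjusted p = 0.335, 0.00619 with the block) in morphants against controls, with -0.67 to -0.18 within the sets. It had -0.49 (SE 0.19, adjusted p = 0.258, 0.00382 with the block) in double embryos against controls and -0.46 (SE 0.19, adjusted p = 0.357, 0.00662 with the block) against prdm1 mutants. Alone, her15.1 had -0.45 (SE 0.20, adjusted p = 0.41, 0.00964 with the block), -0.49 (SE 0.20, adjusted p = 0.306, 0.00537 with the block) and -0.42 (SE 0.20, adjusted p = 0.469, 0.0147 with the block) in these 3 comparisons. her15.2 had -0.48 (SE 0.20, adjusted p = 0.337, 0.0182 with the block), -0.49 (SE 0.20, adjusted p = 0.281, 0.0143 with the block) and -0.50 (SE 0.20, adjusted p = 0.322, 0.0132 with the block). The fold was smallest in set C: in morphants against controls her15.1 had -0.69, -0.56 and -0.17 and her15.2 had -0.63, -0.69 and -0.18 within sets A, B and C.

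The 5 her4 entries, Notch targets of neurogenic regions, hold such counts as well. Their sum was 59.8 ± 4.69 CPM in controls, 59.1 ± 8.27 in prdm1 mutants, 49.2 ± 6.64 in morphants and 47.9 ± 6.60 in double embryos (SD, n = 3). It had -0.28 (SE 0.15, adjusted p = 0.505, 0.0171 with the block) in morphants against controls, -0.32 (SE 0.15, adjusted p = 0.375, 0.00747 with the block) in double embryos against controls and -0.30 (SE 0.15, adjusted p = 0.475, 0.0121 with the block) against prdm1 mutants. All 5 entries had a negative log2 fold change in each of these comparisons. her4.3 had 15.023, 14.6 and 13.8 CPM in controls, 14.3, 11.4 and 14.0 in mutants, 10.4, 10.5 and 12.5 in morphants and 10.6, 10.9 and 11.2 in double embryos. her4.5 had 9.98, 9.07 and 11.6 CPM in controls, 10.5, 9.02 and 12.8 in mutants, 6.75, 7.30 and 9.26 in morphants and 8.01, 5.77 and 9.61 in double embryos. Taken singly, these 2 entries passed in some comparisons with the block and the other 3, her4.1, her4.2 and her4.4, in none. her4.3 had -0.37 (SE 0.14, adjusted p = 0.293, 0.0439 with the block), -0.41 (SE 0.14, adjusted p = 0.203, 0.0249 with the block) and -0.28 (SE 0.14, adjusted p = 0.493, 0.109 with the block) in the 3 comparisons, and her4.5 had -0.39 (SE 0.22, adjusted p = 0.534, 0.0482 with the block), -0.38 (SE 0.22, adjusted p = 0.506, 0.0496 with the block) and -0.46 (SE 0.22, adjusted p = 0.446, 0.0222 with the block). her12 (ENSDARG00000032963), a clock and neural gene that lies next to the her4 entries in the RefSeq table, did not share their direction. It had 20.4, 16.5 and 26.4 CPM in controls, 19.1, 18.1 and 21.4 in mutants, 23.3, 20.2 and 33.0 in morphants and 22.6, 20.3 and 30.7 in double embryos. Its log2 fold change was 0.27 (SE 0.22, adjusted p = 0.749, 0.0701 with the block) in morphants against controls, 0.22 (SE 0.22, adjusted p = 0.793, 0.131 with the block) in double embryos against controls and 0.33 (SE 0.22, adjusted p = 0.68, 0.0344 with the block) against prdm1 mutants.

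Among the remaining her genes, her5 (ENSDARG00000008796), which keeps cells of the midbrain-hindbrain boundary from becoming neurons, had the lowest fold change of all 33 genes in the 3 comparisons of the morpholinos. It had 8.13, 9.41 and 14.0 CPM in controls, 8.92, 9.69 and 14.1 in prdm1 mutants, 5.71, 4.04 and 8.55 in morphants and 4.88, 3.67 and 7.50 in double embryos. Within every set the libraries with the morpholinos were lower, with log2 fold changes of -1.19 to -0.50 for morphants against controls. It had -0.78 (SE 0.33, adjusted p = 0.359, 0.00258 with the block) in morphants against controls, -0.96 (SE 0.33, adjusted p = 0.198, 0.000583 with the block) in double embryos against controls and -1.01 (SE 0.33, adjusted p = 0.212, 0.000457 with the block) against mutants. Its neighbour her11, another boundary gene, had -0.26 (SE 0.23, adjusted p = 0.773, 0.287 with the block) in morphants and -0.31 (SE 0.23, adjusted p = 0.671, 0.187 with the block) in double embryos against controls. In double embryos against prdm1 mutants her11 had -0.43 (SE 0.23, adjusted p = 0.547, 0.0686 with the block), with -0.51 to -0.33 within the sets. her13 (ENSDARG00000007097) had 6.38, 8.49 and 9.45 CPM in controls, 8.04, 6.90 and 8.10 in mutants, 5.87, 4.33 and 7.01 in morphants and 4.44, 3.98 and 5.89 in double embryos. Its double libraries lay below its control libraries. It passed with the block in double embryos against controls (log2 fold change -0.76, SE 0.23, adjusted p = 0.139, 0.0065 with the block) and against mutants (log2 fold change -0.68, SE 0.23, adjusted p = 0.237, 0.0142 with the block), not in morphants against controls (log2 fold change -0.49, SE 0.23, adjusted p = 0.421, 0.0538 with the block).

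her9 (ENSDARG00000056438), a repressor gene expressed between proneural domains, had 143, 116 and 151 CPM in controls, 142, 112 and 137 in mutants, 102, 104 and 129 in morphants and 134, 107 and 128 in double embryos. It had -0.29 (SE 0.15, adjusted p = 0.475, 0.0153 with the block) in morphants against controls but -0.15 (SE 0.15, adjusted p = 0.771, 0.169 with the block) in double embryos against controls. The interaction, the difference between the prdm1 effects with and without the pbx2/4 morpholinos, was not called for it (log2 fold change 0.21, SE 0.21, adjusted p = 1.0, 1.0 with the block). her6 (ENSDARG00000006514), related to mammalian Hes1, had 101, 96.4 and 121 CPM in controls, 93.2, 92.0 and 108 in mutants, 94.5, 118 and 118 in morphants and 111, 116 and 119 in double embryos. It had 0.24 (SE 0.13, adjusted p = 0.525, 0.0381 with the block) in double embryos against mutants and 0.05 (SE 0.13, adjusted p = 0.939, 0.695 with the block) in morphants against controls. hes6 (ENSDARG00000019335), which encodes a partner of Her1 and Her7 in the clock, had 96.2, 99.1 and 92.8 CPM in controls, 90.8, 91.1 and 96.3 in mutants, 87.1, 78.1 and 91.6 in morphants and 83.0, 80.9 and 82.6 in double embryos. Its double libraries lay below its controls, with -0.22 (SE 0.10, adjusted p = 0.324, 0.0246 with the block). It had -0.16 (SE 0.10, adjusted p = 0.571, 0.0969 with the block) in morphants against controls and -0.17 (SE 0.10, adjusted p = 0.565, 0.0794 with the block) in double embryos against mutants. her3 had -0.40 (SE 0.25, adjusted p = 0.615, 0.0635 with the block) in morphants against controls, -0.09 (SE 0.25, adjusted p = 0.945, 0.716 with the block) in double embryos against controls and 0.00 (SE 0.25, adjusted p = 0.998, 0.992 with the block) against mutants. heyl, her8.2, hes2.1, hes2.2 and NOTCH2NL, 5 in all, lay below the filter, and their highest level in any library was 0.481, 0.514, 0.199, 0.223 and 0.252 CPM in that order.

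**Figure D3:**
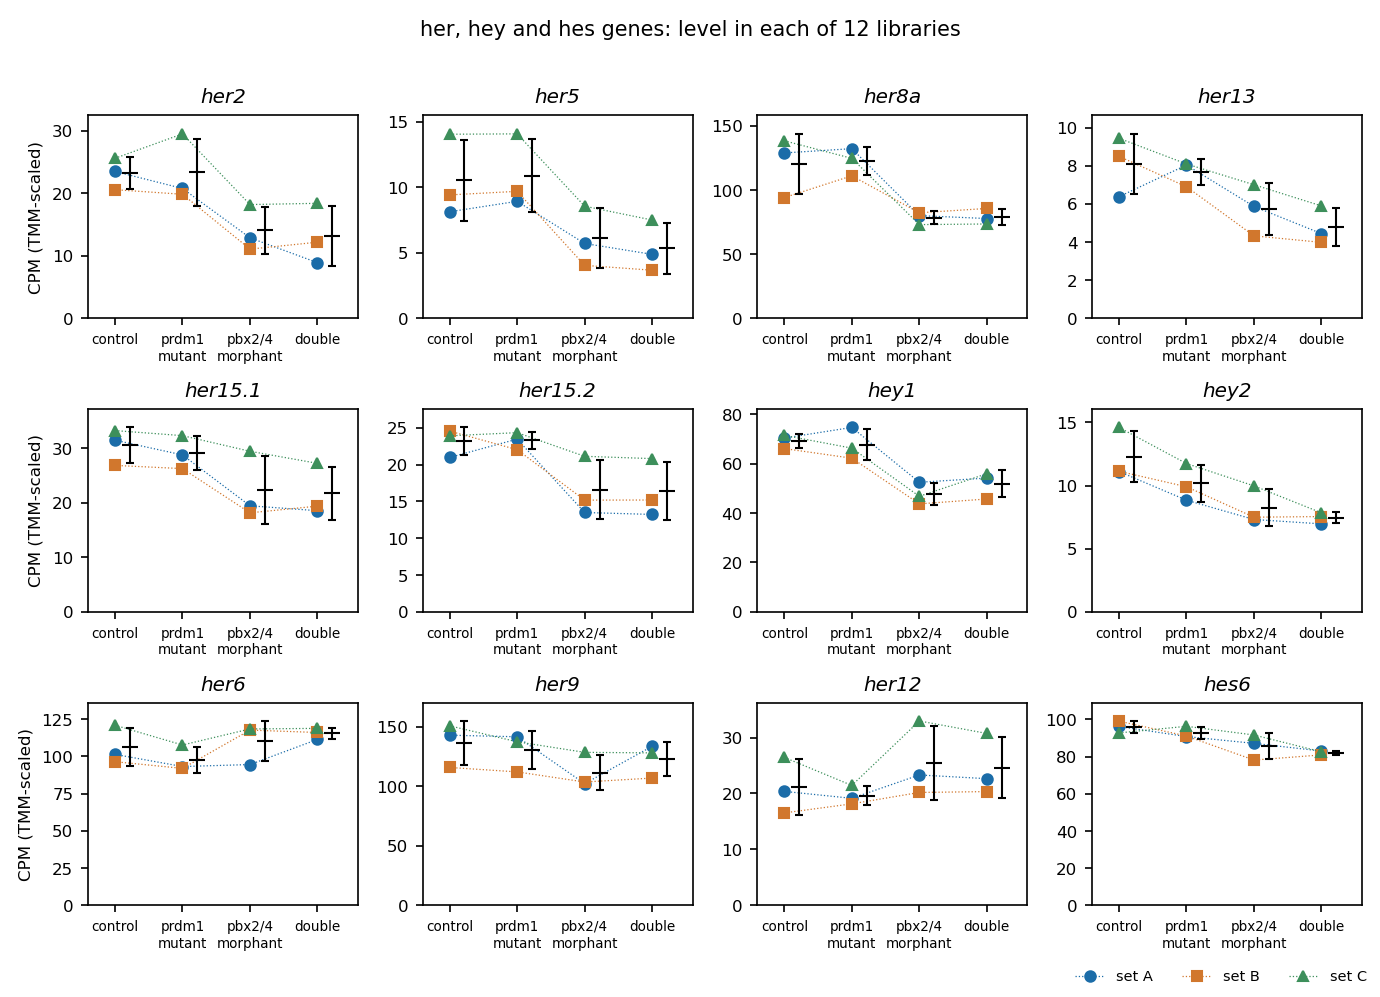
Level of 12 her, hey and hes genes in each library, in CPM on TMM-scaled library sizes, with symbols for the 3 column-name sets and black bars for the group mean and SD (n = 3). her2, her8a and hey1 have every library with pbx2/4 morpholinos below every library without, while her12 does not share this direction.

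Morphants set against controls show the pbx2/4 morpholinos in prdm1+/+ embryos. In edgeR without the block 0 of the 33 tested members were called, where 1.44% of all genes tested were called, and 11 of the 33 had an unadjusted p under 0.05, as did 12% of all genes tested. DESeq2 called 3, namely dla, her8a and hey1, all lower, where it called 2.88% of all genes. With the block 2 were higher and 13 lower, 15 of 33 or 45.5%, where 17.7% of all genes tested were called, 7.73% higher and 9.95% lower. Of the 13 lower, 4 were her4 and her15 copies, which are not independent of each other. The median log2 fold change of the 33 was -0.21, against 0.01 over all genes tested. The 3 libraries of each group did not overlap for 2 members in the upward and 7 in the downward direction, where 7.72% and 8.5% of all genes tested did so. Leaving out a whole set gave 6 calls without set A, 10 without set B and 9 without set C, in fits with the block that called 7.79%, 13.8% and 8.36% of all genes tested.

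The comparison of double embryos with prdm1 mutants asked the same in prdm1-/- embryos and shares no library with the first, though both draw on the same 3 sets. In edgeR without the block 1 member was called, dla, where 1.36% of all genes tested were called. With it 4 were higher and 11 lower, 45.5% against 16.2% of all genes tested. Of all genes 7.22% were higher and 8.98% lower. Of the 11 lower members, 3 were her4 and her15 copies. The groups did not overlap for 3 members upward and 11 downward, against 7.68% and 7.99% of all genes tested. JAG2 (2 of 2), jag1b, her6 and her12 were the 4 higher. With the block 10 members were lower in both comparisons: dla, jag1a, her2, her5, her8a, her4.5, her15.1, her15.2, hey1 and hey2. JAG2 (2 of 2) was the 1 member higher in both, so the same members made up 11 of the 15 calls in each. Over all genes tested the calls shared in the same direction were 2063, of 3203 in the first and 2935 in the second. Across the 33 members the log2 fold changes of both comparisons had Pearson r = 0.95 and Spearman rho = 0.93, and 32 of 33 had the same sign. Over all genes tested r was 0.75, rho 0.70 and 77.9% had the same sign. Genes, and the her4 and her15 copies above all, are not independent replicates, and these values describe the 12 libraries.

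**Figure D4:**
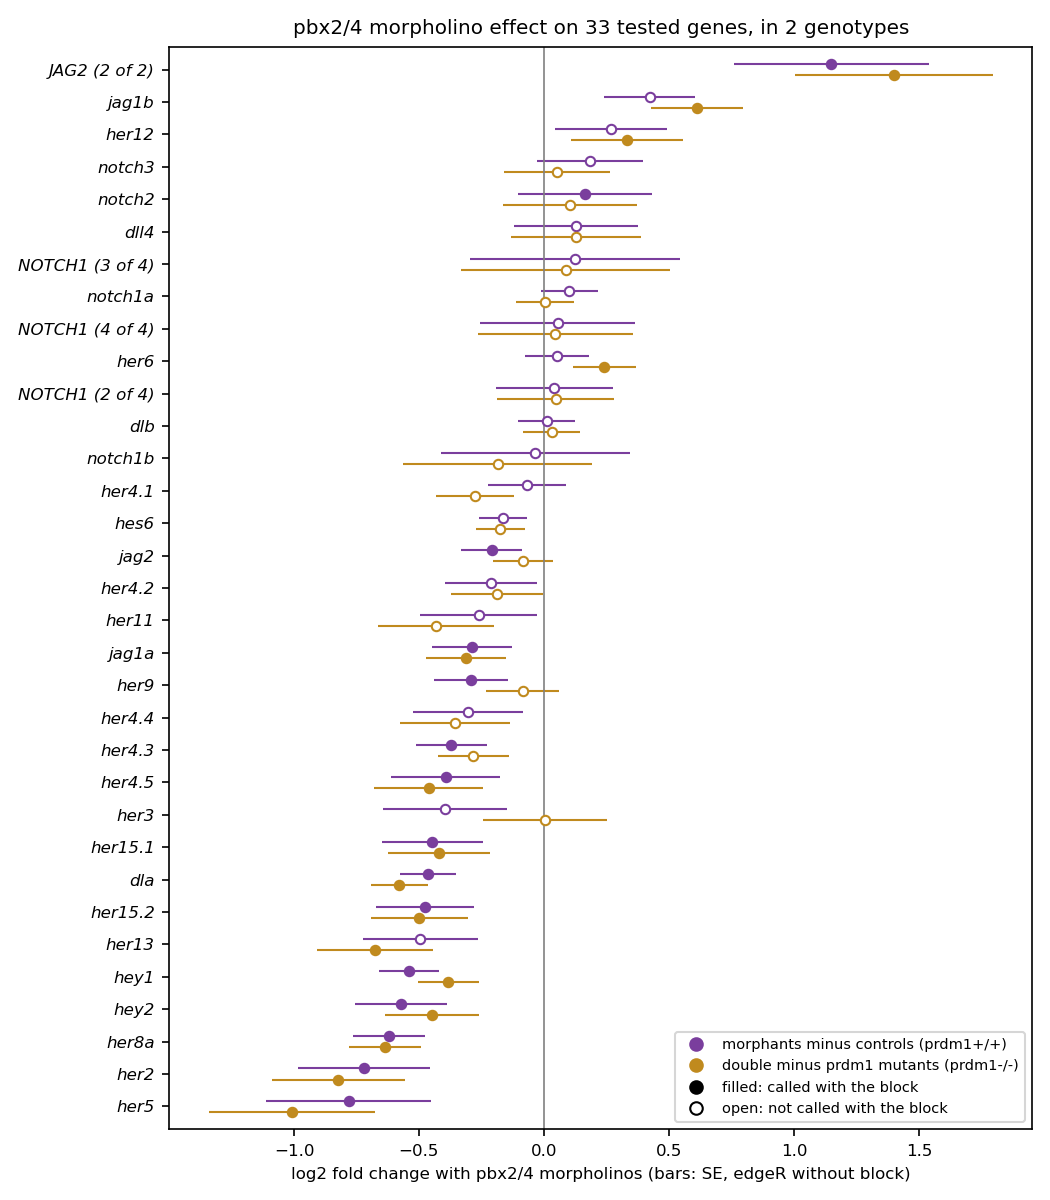
Log2 fold change with pbx2/4 morpholinos of the 33 tested members in prdm1+/+ embryos (morphants minus controls) and in prdm1-/- embryos (double embryos minus prdm1 mutants), with SE from edgeR without the block. Filled points were called with the block, 15 in each comparison; JAG2 (2 of 2) has the highest value and her5 the lowest in both.

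Double embryos against controls differ in both the genotype and the morpholino and share their controls with the other comparisons. In edgeR without the block 0 members were higher and 2 lower, dla and her8a, 6.06% of the 33 against 2.25% of all genes tested. With it 2 were higher and 14 lower, 48.5% against 20.2% of all genes tested, where 9.33% were higher and 10.8% lower. Of the 14 lower, 4 were her4 and her15 copies. The groups did not overlap for 1 member upward and 11 downward, against 8.46% and 8.92% of all genes tested. The median log2 fold change of the 33 was -0.22, against 0.01 over all genes tested. All 6 libraries with pbx2/4 morpholinos lay above all 6 without for 1 member, jag1b, and below them for 4, namely dla, her2, her8a and hey1. Of all genes tested 2.56% lay above and 3.71% below.

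No member passed the test in either comparison of prdm1 loss. In prdm1 mutants against controls 0 of 33 were called without or with the block, and 0 had an unadjusted p under 0.05, where 2.65% of all genes tested did. DESeq2 called 0 as well. Of all genes tested 0.193% were called without and 1.1% with the block. Between double embryos and pbx2/4 morphants the counts were 0 in each of these tests, where 0.149% and 1.2% of all genes tested were called and 2.71% had an unadjusted p under 0.05. Without the block the standard error of the 33 fold changes was 0.10 to 0.42 in both comparisons, with a median of 0.20. With it the standard errors were smaller, such as 0.08 for NOTCH1 (3 of 4) and 0.24 for dll4 in prdm1 mutants against controls. Differences above their standard error were not called either, such as -0.52 (SE 0.26) for dll4 in prdm1 mutants against controls. Smaller differences could therefore have gone undetected.

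dll4 had the lowest log2 fold change of the 33 with prdm1 loss, -0.52 (SE 0.26, adjusted p = 1.0, 0.572 with the block) with the control morpholino and -0.52 (SE 0.25, adjusted p = 1.0, 0.524 with the block) with the pbx2/4 morpholinos. It had 4.32, 2.41 and 4.28 CPM in controls and 2.33, 2.56 and 2.85 in prdm1 mutants, which overlap. It had 3.86, 4.13 and 4.16 in morphants and 2.70, 3.46 and 2.40 in double embryos, which do not, and it was the 1 such member of 33, where 5.13% of all genes tested did not overlap. Within set B the mutant was higher than the control by 0.08 on the log2 scale. dlb had 54.5, 52.4 and 53.2 CPM in the mutants, below all 3 controls, with -0.20 (SE 0.11, adjusted p = 1.0, 0.436 with the block). It was the 1 member of 33 whose libraries did not overlap in that comparison, where 6.04% of all genes tested did not. In double embryos dlb had 53.9, 48.8 and 60.8 CPM against 63.2, 55.3 and 67.1 in morphants, with -0.18 (SE 0.11, adjusted p = 1.0, 0.524 with the block). hey2 had -0.28 (SE 0.18, adjusted p = 1.0, 0.494 with the block) in prdm1 mutants against controls. For the other 30 members the log2 fold change in mutants lay above -0.30, and the highest was 0.16.

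The interaction was called for 0 of 33 members without or with the block, 0 by DESeq2 and 0 of all genes tested (0%), and 0 members had an unadjusted p under 0.05, where 0.569% of all genes tested did. Its estimates ran from -0.23 to 0.40, with standard errors of 0.14 to 0.59. The prdm1 effects with and without the pbx2/4 morpholinos had r = 0.46 and rho = 0.21 across the 33 members, and 19 had the same sign, 57.6% against 58.7% of all genes tested.

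**Figure D5:**
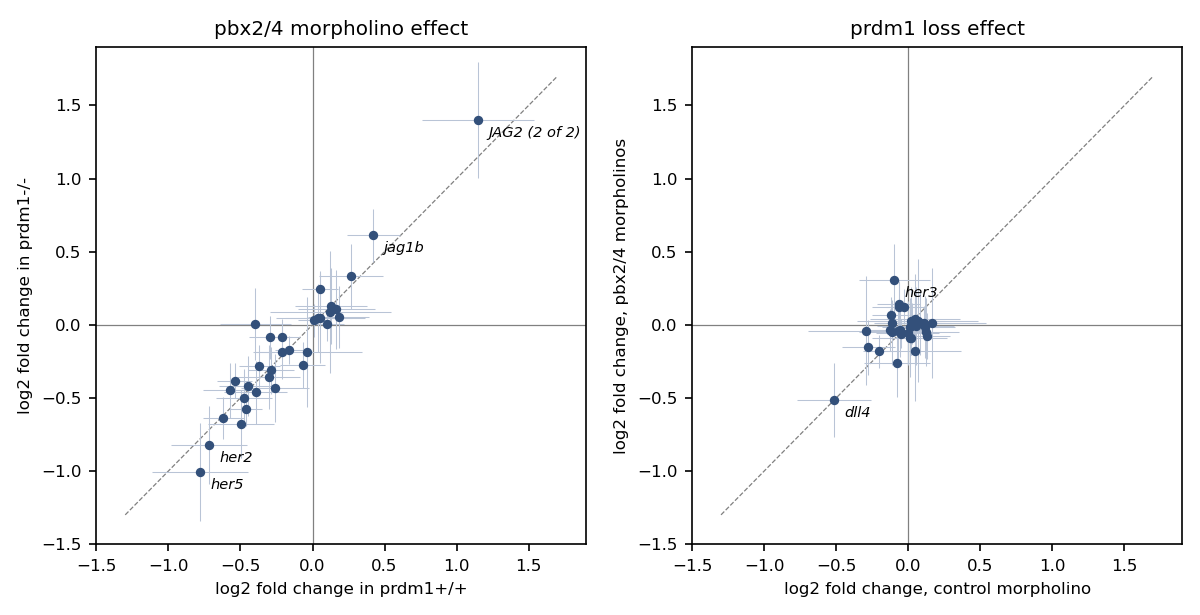
Left, log2 fold change with pbx2/4 morpholinos in prdm1-/- embryos against that in prdm1+/+ embryos; right, log2 fold change with prdm1 loss in embryos with pbx2/4 morpholinos against that with the control morpholino; 33 members, bars are SE, dashed lines mark equal values. The left points follow the line from her5 to JAG2 (2 of 2), while the right points gather around 0 with dll4 lowest.

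In genes that carry the signal from ligand to target the share of calls was near that of all genes. Of 15 tested genes for ligand uptake, receptor cleavage, glycosylation of the receptor and nuclear partners, 0 were called without the block in any comparison. With it, aph1b, a gamma-secretase subunit gene, had 0.19 (adjusted p = 0.666, 0.0432 with the block) and poglut1, a glycosyltransferase gene, -0.48 (adjusted p = 0.492, 0.011 with the block) in morphants against controls. These 2 of 15, where 17.7% of all genes tested were called, are 1 higher and 1 lower, and the list's median was 0.08. Against controls, double embryos had 2 higher and 1 lower with the block, where 20.2% of all genes were called, adam17b being the second higher one, at 0.52 (adjusted p = 0.657, 0.0217 with the block). Against prdm1 mutants they had 1 higher and 1 lower with the block, where 16.2% of all genes were called, and in both prdm1 comparisons 0 were called.

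Of 8 tested modulators, nrarpb, a Notch target that feeds back on the pathway, had -0.41 (adjusted p = 0.223, 0.00483 with the block) and fbxw7, a ubiquitin ligase gene that acts on the freed receptor, 0.52 (adjusted p = 0.377, 0.00125 with the block) in morphants against controls, 1 lower and 1 higher with the block and 0 without. Double embryos against controls had the same counts, and against prdm1 mutants 2 were higher with the block, fbxw7 and the adaptor gene numbl. The other Delta genes tested were dlc and dld. dld, a Delta gene of neurons and the tailbud, had -0.39 (adjusted p = 0.12, 0.000276 with the block) in morphants, -0.34 (adjusted p = 0.159, 0.000664 with the block) in double embryos against controls and -0.38 (adjusted p = 0.142, 0.000402 with the block) against mutants, and dlc was not called. Of 10 tested clock genes, dld among them, 0 were called without the block. With it ripply1, a gene of somite boundaries, was higher in morphants, at 0.45 (adjusted p = 0.186, 0.00183 with the block), and dld lower, and the same 2 were called in the other 2 comparisons of the morpholinos. Against the same shares of all genes, 2 of 8 modulators and 2 of 10 clock genes are near the background.

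Of 10 tested proneural and neurogenesis genes, neurog1, a proneural bHLH gene, fell in morphants against controls (log2 fold change -0.67, SE 0.15, adjusted p = 0.0487, 0.00068 with the block), the 1 call without the block, where 1.44% of all genes tested were called. With the block 8 of the 10 were lower and 0 higher, where 9.95% of all genes tested were lower and 7.73% higher. The median of the 10 was -0.64. Double embryos had 3 lower and 0 higher against controls, insm1a at -1.06, insm1b at -0.91 and elavl4 at -1.86 (9 lower with the block). Of all genes tested 2.25% were called there without the block, and 10.8% were lower with it. The elavl4 value (SE 0.37, adjusted p = 0.0221, 0.000519 with the block) rests on low levels, a mean of 2.21 CPM in controls and 0.591 in double embryos. Against prdm1 mutants 2 fell and 0 rose in double embryos, insm1a at -0.97 and atoh1a at -2.51 (8 lower with the block). Here 1.36% of all genes tested were called without the block, and 8.98% were lower with it. The atoh1a value (SE 0.51, adjusted p = 0.0329, 0.00081 with the block) rests on few counts, a mean of 2.15 CPM in prdm1 mutants and 0.382 in double embryos. In prdm1 mutants against controls 0 were called without the block and 1 was lower with it, elavl3, a gene of postmitotic neurons, at -0.40 (adjusted p = 1.0, 0.00125 with the block). In double embryos against morphants 0 were called without it and 2 were lower with it, elavl3 at -0.46 (adjusted p = 1.0, 0.000411 with the block) and elavl4 at -1.74 (adjusted p = 0.168, 0.00596 with the block). In these 2 comparisons of prdm1 loss 1.1% and 1.2% of all genes tested were called with the block. The summed level of the listed genes was 212 to 241 CPM in controls, 170.4 to 205 in prdm1 mutants, 158 to 193 in morphants and 130.2 to 153 in double embryos. elavl3 alone made up much of this sum, with a mean of 121.9 CPM in controls, 92.2 in prdm1 mutants, 104.1 in morphants and 75.7 in double embryos. The median log2 fold change of the 10 tested genes in prdm1 mutants against controls was -0.08.

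Markers of some other cells and states moved with the same comparisons, and their part in the fold changes of the members was not tested. In morphants against controls 0 of 6 endothelial, 0 of 4 neural crest and 1 of 4 notochord and floor plate genes were called with the block. Of all genes tested, 1.44% were called in morphants against controls, 17.7% with the block. Double embryos had 2.25% called against controls and 1.36% against prdm1 mutants, and 20.2% and 16.2% with the block. Of 10 p53 response genes tested, 8 rose and 0 fell in morphants against controls, with a median log2 fold change of 1.64, and 10 were higher with the block. In double embryos 9 rose and 0 fell both against controls and against prdm1 mutants. Their summed level was 832 to 1687 CPM in controls, 802 to 1828 in prdm1 mutants, 3248 to 4234 in morphants and 3644 to 3930.3 in double embryos. Of 6 hindbrain genes, mafba and egr2b fell in all 3 comparisons of the morpholinos, 2 of 6 with 0 higher, hoxb1a was lower as well with the block, and the summed level was 253 to 279 CPM in controls against 123 to 149 in morphants. Of 5 neural progenitor genes 0 were called without the block and sox3, sox19a and sox19b were lower with it, at -0.58, -0.30 and -0.33 in morphants. Their summed level was 886 to 924 CPM in controls, 883 to 943 in prdm1 mutants, 719.9 to 736 in morphants and 698 to 777 in double embryos.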

How the data were processed

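RNA from 12 libraries of whole zebrafish embryos was counted per gene. The authors deposited estimated counts: 13.7% of the values are not whole numbers (tolerance 1e-06). The submitters' processing notes name TopHat 1.4, edgeR and Zv9; the sources used here do not give the counting method, annotation release or strand setting. Counts had been assumed to be whole when the tests were chosen, so the values were rounded first. Rows with no gene name numbered 66.

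Groups of count columns were read from the column names. edgeR 4.0.16 in R 4.3.3 fitted all 12 libraries in 1 quasi-likelihood model (TMM scaling, filterByExpr by group, group as the only term, 8 residual degrees of freedom), with Benjamini-Hochberg adjustment over the 18117 genes tested. The SE was taken as the size of the log2 fold change over the root of its F value. The same model with the column-name set as a block had 6 residual degrees of freedom. Deviations from the group means correlated at 0.448 to 0.669 in the 18 library pairs of the same set, so the sets were taken to pair the libraries. The 36 pairs of different sets had -0.483 to -0.0299, which partly follows from taking out the group means. The pairing comes from the column names and the data, not from a stated batch. DESeq2 1.42.0, other filters and scalings, fits of only the groups compared and fits without each library were alternatives. No pair of libraries in a group agreed within sampling noise (chi-square per gene of 11.8 or more), so none were merged. This check can find the same library sequenced again, not the same RNA pool prepared again. Within each group the column names of sets B and C share a number, whose meaning is not stated. P-values measure the spread between these pools. The summed lists of pathway, neural, endothelial, notochord and floor plate, neural crest, hindbrain and p53 genes, like the members, were chosen with earlier results of these data known. Members called with or without the block are given in every library; genes of the pathway, proneural and clock lists are named where called without the block, at most 5 a comparison, and the further ones named were chosen after their values were seen.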

Additional observations from a re-analysis of the deposited data

How the results depend on the processing

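The 46 single-gene results followed here are the members called with the block in the 3 comparisons of the morpholinos. Most were not called without it, so most kept values are results that stayed uncalled. Calls gained at the block setting follow from this choice. Under 22 settings, 3 of them chosen after seeing the data, 854 of 1001 values kept their direction and their side of the threshold. Of the rest 27 lost the call, 119 gained one and 1 changed sign. That one was notch2 in morphants against controls, -0.070 without the morphant of set A, in a range of -0.070 to 0.39 over the fits that leave out 1 library; the cause of this and of the changes below was not tested. The replicate block, which pairs libraries by column-name set, moved the members called from 0 to 15 in morphants against controls, from 2 to 16 in double embryos against controls and from 1 to 15 in double embryos against prdm1 mutants. With the replicate block and without set A, B or C the counts were 6, 10 and 9, then 7, 11 and 10, then 4, 12 and 10 in the same order of comparisons, where 7.79%, 13.8% and 8.36%, then 7.80%, 18.1% and 10.6%, then 5.20%, 13.8% and 8.18% of all genes tested were called. DESeq2 gave 3, 4 and 3, against 2.88%, 3.75% and 3.01% of all genes. A fit of only the 2 groups compared gave 0 in double embryos against controls and 0 against prdm1 mutants. Such fits called 1.2% and 0.547% of all genes tested. With no low-count filter 1 member was called in double embryos against controls, and 1.38% of all genes. Leaving out 1 library gave 0 to 1, 0 to 2 and 0 to 2. These fits called 0.425% to 1.37%, 0.889% to 2.18% and 0.393% to 1.21% of all genes tested. The calls gained by leaving out 1 library in morphants against controls were her8a without the control of set B and hey1 without the double library of set B. The 2 comparisons of prdm1 loss and the interaction gave 0 members under every setting run. Over all genes tested, the calls in morphants against controls were 260, 3203 with the block and 546 by DESeq2, in double embryos against controls 407, 3655 and 711, and in double embryos against prdm1 mutants 247, 2935 and 555. For prdm1 mutants against controls they were 35 and 199 with the block. Genes near 1 CPM or below rest on few counts.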

Other observations

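The clock repressors her1 and her7, which were not among the members, were not called in any comparison. her1 had 41.4 ± 4.01 CPM in controls and 42.5 ± 7.16 in morphants, and her7 had 17.9 ± 0.136 and 20.1 ± 3.53 (SD, n = 3), with log2 fold changes of 0.04 (adjusted p = 0.967, 0.799 with the block) and 0.17 (adjusted p = 0.797, 0.312 with the block).

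Of 6 endothelial genes tested 0 were called without the block in any comparison, and with it tal1 was lower in double embryos against prdm1 mutants. Their summed level was 186 to 242 CPM in controls and 175 to 233 in morphants. Of 4 notochord and floor plate genes 0 were called without the block, and foxa2 was lower with it in the 3 comparisons of the morpholinos, at -0.36 in morphants. Of 4 neural crest genes 0 were called without the block. With it sox10, a neural crest factor, was lower in prdm1 mutants against controls, at -0.54 (adjusted p = 1.0, 0.0209 with the block), and in double embryos against controls, at -0.73 (adjusted p = 0.105, 0.00052 with the block). tfap2a was lower in double embryos against controls, at -0.33 (adjusted p = 0.215, 0.000565 with the block), and against morphants, at -0.24 (adjusted p = 1.0, 0.0349 with the block). With the block 16.2% to 20.2% of all genes tested were called in the 3 comparisons of the morpholinos. In prdm1 mutants against controls 1.1% were called with it, and in double embryos against morphants 1.2%.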
